A study of Sus scrofa with 2 samples.

Results

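The CHGA/CYP11A1 cells are a set of trophoblast-like cells in the library of a day-30 pregnant pig uterus. They were chosen by raw transcript counts, each transcript carrying a unique molecular identifier (UMI). A barcode had to hold at least 500 UMIs and 300 genes, at least 3 UMIs of SMPDL3A and PAG6 together, and at least 2 UMIs of CHGA and CYP11A1 together. The rule found 1193 of 8669 kept barcodes of that library (13.8%, exact Clopper-Pearson 95% interval 13.0 to 14.5), among 19466 kept barcodes of both libraries.

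Endometrium was sampled from 2 Yorkshire sows aged 3 years, and single cells were profiled with 10x Genomics 3' chemistry. The sow of the embryo loss library (EL) had aborted before and then failed to conceive at repeated inseminations, and her stage at sampling is not given. The sow of the implantation library (EIS) had conceived by insemination and was sampled at day 30. Each library is 1 sow, so sow, stage, pregnancy and library cannot be told apart, and every interval here covers counting error only. Tissue was digested with enzymes, passed through a cell filter and cleared of red cells.

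Trophoblast is the outer epithelium of the conceptus. In the pig it lies against the uterine epithelium without invading it, takes up the secretions of the uterine glands, and early conceptuses make steroids. CHGA encodes chromogranin A, a protein of the secretory granules of endocrine cells, and CYP11A1 encodes the mitochondrial enzyme that cleaves the cholesterol side chain, the entry step of steroid synthesis. SMPDL3A encodes a phosphodiesterase related to acid sphingomyelinase, and PAG6 a pregnancy-associated glycoprotein, a family of secreted proteins related to aspartic proteases.

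In EL, 43302286 UMIs fell on 10936 barcodes, and in EIS 36069473 UMIs fell on 8848. Kept barcodes had a median of 2301 UMIs in EL and 2245 in EIS. The libraries shared 27 barcode sequences, 2 of them among the CHGA/CYP11A1 cells. The rule met 0 of 10797 kept EL barcodes, which allows a share of up to 0.0342% by the exact interval and 0.0278% by a limit of 3 counts. Only 3 EL barcodes reached 3 UMIs of SMPDL3A and PAG6 together.

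The CHGA/CYP11A1 cells were compared with 3 sets of the same library. The nearest set was 1421 barcodes with at least 3 UMIs of SMPDL3A and PAG6 but 0 or 1 UMI of CHGA and CYP11A1, called the other SMPDL3A/PAG6 cells. A further set was 657 barcodes with under 3 UMIs of SMPDL3A and PAG6 and at least 3 of UPK2, GATA3 and THBS1 together. The widest was all 6055 barcodes with under 3 UMIs of SMPDL3A and PAG6, called the remaining EIS barcodes, which include the 657. The median depth was 4595 UMIs in CHGA/CYP11A1 cells, 2609 in other SMPDL3A/PAG6 cells, 3221 in the UPK2, GATA3 and THBS1 set and 1726 in the remaining EIS barcodes.

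The rule selects on depth as well as on expression. It met 0.782% of barcodes with 500 to 1000 UMIs, 31.9% of those with 4000 to 8000 and 11.5% of those with 16000 or more. Among barcodes that passed the SMPDL3A and PAG6 threshold, the share that also passed the CHGA and CYP11A1 threshold was 11.5% below 1000 UMIs and 76.9% between 8000 and 16000. Doublets were scored but kept. The top doublet scores took in 4.11% of CHGA/CYP11A1 cells, 9.50% of other SMPDL3A/PAG6 cells and 7.36% of all kept EIS barcodes.

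**Figure D1:**
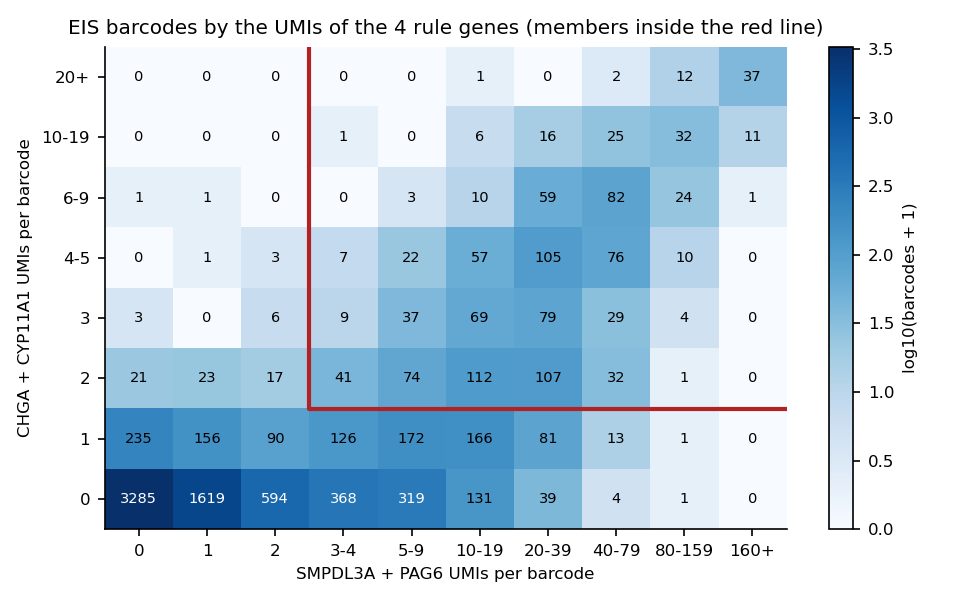
Kept EIS barcodes by their UMIs of SMPDL3A plus PAG6 (horizontal axis) and of CHGA plus CYP11A1 (vertical axis). Each square gives the number of barcodes, the shade is on a log10 scale, and the red line encloses the 1193 CHGA/CYP11A1 cells. Barcodes with high counts of 1 gene pair mostly had high counts of the other, with no gap at the line.

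The 4 genes of the rule are given as a description. A CHGA/CYP11A1 cell held between 0 and 543 UMIs of SMPDL3A with a median of 18, and between 0 and 181 of PAG6 with a median of 7. CHGA ran from 0 to 56 UMIs and CYP11A1 from 0 to 44, each with a median of 2. The cells held 19.7% of the UMIs of all kept EIS barcodes but 83.5% of the CHGA and 87.2% of the CYP11A1 UMIs. Both genes were detected in 858 cells (71.9%), CHGA alone in 190 (15.9%) and CYP11A1 alone in 145 (12.2%).

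Just inside the CHGA and CYP11A1 threshold lay 367 cells with 2 UMIs, and just outside lay 559 barcodes with 1. PLET1, a placenta-expressed transcript, stood at 8110 CPM (UMIs scaled to a total of 1000000 over the summed cells) inside and 4946 outside. LGMN stood at 756 inside and 667 outside, and SLC7A4 at 657 and 562. The 143 cells with 10 or more UMIs of CHGA and CYP11A1 had 15085 CPM of PLET1, 3277 of LGMN and 2886 of SLC7A4. The levels of LGMN and SLC7A4 thus ran on across the threshold, and each of these genes was highest far inside it. PLET1 was also highest there but did not rise evenly, at 6080 CPM in the 390 cells with 3 or 4 UMIs. At the SMPDL3A and PAG6 threshold, 26 cells with 3 UMIs had 2676 CPM of PLET1, and 26 barcodes with 2 UMIs had 882. LGMN stood at 366 in these cells and 199 in these barcodes, and SLC7A4 at 409 and 192, so the levels stepped here.

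Depth was held equal by thinning each barcode to 2000 UMIs, which left out 79 CHGA/CYP11A1 cells, 486 other SMPDL3A/PAG6 cells and 3364 remaining EIS barcodes. At least 1 UMI of CHGA or CYP11A1 was then present in 4.03% of 2182 barcodes with no SMPDL3A or PAG6 UMI, in 51.0% of 913 barcodes with 3 to 9, and in 91.0% of 89 barcodes with 30 or more. The exact interval of the last share was 83.1 to 96.0%. Both genes together were present in 0.092%, 10.3% and 68.5% of the same barcodes. All 4 genes belong to the rule, so these shares are a description.

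**Figure D2:**
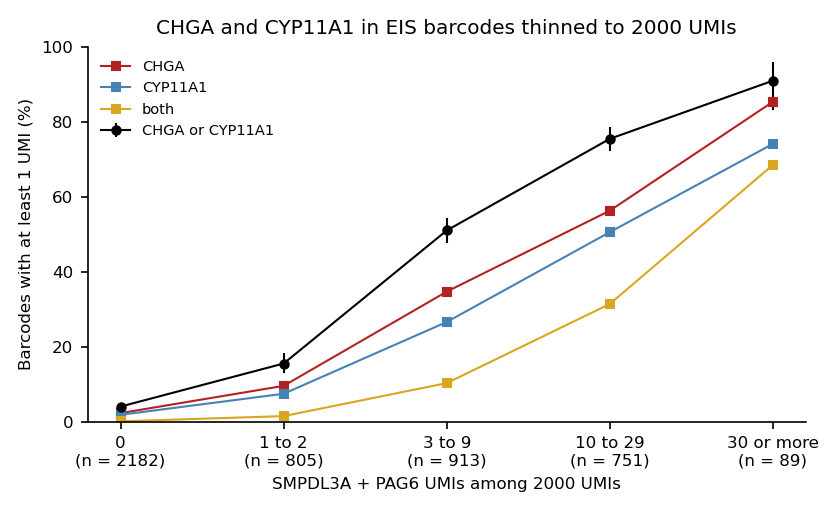
Share of kept EIS barcodes with at least 1 UMI of CHGA, CYP11A1, either or both, after thinning to 2000 UMIs, by the number of SMPDL3A plus PAG6 UMIs left. Bars on the black points are exact Clopper-Pearson 95% intervals; the share with either gene was 4.03% at 0 UMIs and 91.0% at 30 or more.

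RNA free in the suspension was looked for in lymphocytes, which should lack these transcripts. Barcodes that met the rule were left out of the T or NK and endothelial sets. CHGA, CYP11A1, SMPDL3A and PAG6 belong to the rule, so their shares are a description. CHGA was detected in 87.8% of CHGA/CYP11A1 cells and in 3.76% of 452 T or NK barcodes. CYP11A1 was detected in 84.1% of CHGA/CYP11A1 cells and in 2.65% of T or NK barcodes, whose median depth was 1924 UMIs. After thinning, the CHGA shares were 63.0% and 2.88%, and the CYP11A1 shares 57.4% and 2.88%. For SLC7A4 the unthinned shares were 91.2% in CHGA/CYP11A1 cells and 9.73% in T or NK barcodes, and for LGMN 92.9% and 19.5%. SMPDL3A was present in 27.7% of T or NK barcodes and PLET1 in 35.2%. The T or NK barcodes held up to 31 UMIs of SMPDL3A and 25 of PAG6, so they were not free of barcodes rich in these transcripts. In 426 vascular endothelial barcodes, with a median depth of 4066 UMIs, SLC7A4 was detected in 24.6% and LGMN in 58.2%, above the T or NK shares. SMPDL3A was present in 49.1% of these endothelial barcodes, PLET1 in 60.1%, CHGA in 9.15% and CYP11A1 in 5.16%, also above the T or NK shares. PAG6 was present in 35.4% of them and in 13.9% of T or NK barcodes. The endothelial barcodes held up to 44 UMIs of SMPDL3A. How much of these counts was free RNA was not tested.

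The genes given with the label and trophoblast markers were compared across the sets. The label genes were chosen with earlier results of these data known, so their levels describe the cells and do not check the label. SLC7A4, related to the cationic amino acid transporters, stood at 1354 CPM in CHGA/CYP11A1 cells, 392 in other SMPDL3A/PAG6 cells, 58.3 in the remaining EIS barcodes and 16.8 in EL. LGMN, the lysosomal cysteine protease legumain, stood at 1569, 485, 156 and 51.5 in the same order. Of 11 trophoblast markers at a testable level, 8 were past 2-fold higher in CHGA/CYP11A1 cells than in the remaining EIS barcodes and 0 lower, and 3 of the 11 were genes of the rule. A gene is counted as past 2-fold where the ratio exceeds 2 in either direction, with at least 50 CPM in the higher set and 20 UMIs over both. Over all 2990 genes at such a level, 15.3% were past 2-fold higher and 5.02% lower, 20.3% in all. Outside the rule, 5 of 8 trophoblast markers were past 2-fold higher, among them GATA3, TFAP2A, TFAP2C and GATA2. GATA2 stood at 114 CPM in CHGA/CYP11A1 cells and 42.3 in the remaining EIS barcodes, but at 174 in EL, where GATA3 stood at 1.84. The list of trophoblast transcription factors summed to 2332 CPM in CHGA/CYP11A1 cells and 3532 in EL.

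Against the remaining EIS barcodes, 17 of 24 lysosomal enzyme genes outside the rule were past 2-fold higher in the CHGA/CYP11A1 cells and 1 lower. So were 11 of 20 transport genes, with 0 lower, and 9 of 15 genes of glycolysis and hypoxia, with 1 lower. Over all genes 15.3% were past 2-fold higher and 5.02% lower. The glycolysis and hypoxia list had a median of 1.09 (log2), near the 2-fold line. The lysosomal list as a sum was level, at 51609 CPM in CHGA/CYP11A1 cells and 51545 in the remaining EIS barcodes. ACP5, the iron-binding uteroferrin, stood in that sum at 25125 and 47437. The median log2 ratio of all 2990 genes was 0.18. PLET1 reached 9088 CPM in CHGA/CYP11A1 cells, against 301 in the remaining EIS barcodes, a ratio of 30.2 (29.4 to 30.9), and 0 UMIs in EL. PPAG3, another porcine pregnancy-associated glycoprotein, stood at 260 in CHGA/CYP11A1 cells and 6.72 in the remaining EIS barcodes, a ratio of 38.6 (32.8 to 45.7). It had 0 UMIs in EL. PLBD1, a phospholipase B domain protein, stood at 798 in CHGA/CYP11A1 cells and 37.8 in the remaining EIS barcodes, and RNASE1, a secreted ribonuclease, at 440 and 22.2. The glandular transcripts SLPI, ACP5 and UABP-2 took large and unequal shares of these totals. With genes over 1% of EIS UMIs left out of the totals the median gene shifted by -0.21 (log2). The genes past 2-fold were then 400 higher and 388 lower, against 458 higher and 150 lower with all genes in the totals. Lists with a median near the 2-fold line are open to such a shift. Their counts with those totals are not given here.

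**Figure D3:**
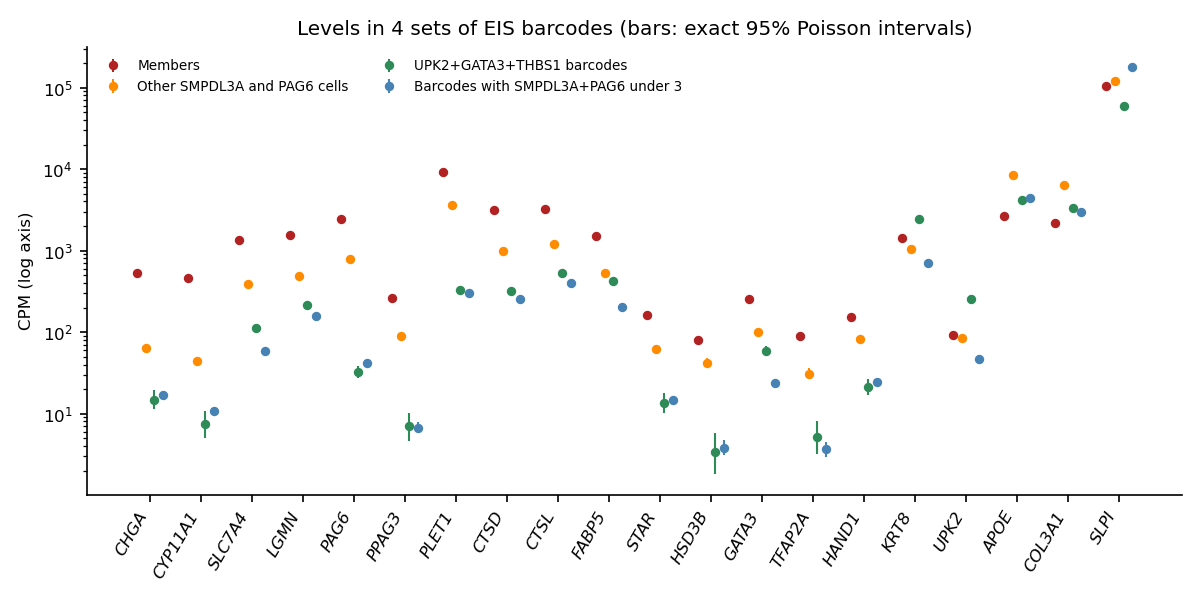
CPM of 20 genes on a log axis in the CHGA/CYP11A1 cells ("Members"), the other SMPDL3A/PAG6 cells, the UPK2, GATA3 and THBS1 set, and the remaining EIS barcodes. Points are levels of summed UMIs and bars are exact 95% Poisson intervals, which cover counting error only. CHGA, CYP11A1, PLET1 and CTSD stood highest in the CHGA/CYP11A1 cells, while APOE and COL3A1 stood highest in the other SMPDL3A/PAG6 cells.

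The closest comparison was with the other SMPDL3A/PAG6 cells. Of 2909 genes, 159 (5.47%) were past 2-fold higher in the CHGA/CYP11A1 cells and 102 (3.51%) lower, 8.97% together, with a median log2 ratio of 0.06 over all genes. The sets also differed in depth and in SMPDL3A and PAG6 level, and values with a higher floor on those genes and at equal depth follow the gene groups.

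Lysosomal hydrolases made the largest group. Without SMPDL3A, 13 of 24 genes of the lysosomal list were past 2-fold higher in CHGA/CYP11A1 cells, with a median log2 ratio of 1.26, and 0 were lower. CTSD, the aspartic protease cathepsin D, stood at 3138 CPM in CHGA/CYP11A1 cells and 986 in other SMPDL3A/PAG6 cells, a ratio of 3.18 (3.09 to 3.28). CTSL, the cysteine protease cathepsin L, whose symbol is carried by several features that were summed, stood at 3193 and 1220, a ratio of 2.62 (2.55 to 2.69). LGMN had a ratio of 3.24 (3.10 to 3.38). CTSA, which protects sialidase and beta-galactosidase, had a ratio of 2.89. NPC2, which carries cholesterol out of lysosomes, stood at 536 in CHGA/CYP11A1 cells and 219 in other SMPDL3A/PAG6 cells. The list was not uniform: CTSS, a cathepsin of antigen-presenting cells, stood at 42.5 and 75.2, and LIPA, the acid lipase, at 39.5 and 42.1. Genes of the lysosomal membrane and its proton pump were past 2-fold in 0 of 18 cases against these cells, with LAMP1 at a ratio of 1.70 (1.59 to 1.82) and a list median of 0.57 (log2). Against the remaining EIS barcodes 11 of the 18 were past 2-fold higher, where the share over all genes was 15.3%. The list median there was 1.09 (log2), near the 2-fold line, so this count is open to the choice of totals.

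Among steroid genes outside the rule, STAR was the 1 of 11 past 2-fold higher in CHGA/CYP11A1 cells than in other SMPDL3A/PAG6 cells, and 0 were lower, a share near the 8.97% over all genes. STAR, which moves cholesterol into mitochondria, stood at 162 CPM in CHGA/CYP11A1 cells, 61.8 in other SMPDL3A/PAG6 cells and 14.5 in the remaining EIS barcodes. Over the other SMPDL3A/PAG6 cells its ratio was 2.63 (2.32 to 2.98). FDX1, the ferredoxin that passes electrons to CYP11A1, stood at 307, 181 and 79.3. HSD3B, the enzyme that makes progesterone from pregnenolone, stood at 79.4, 42.3 and 3.8, and was detected in 23.8% of CHGA/CYP11A1 cells. Of its 560 UMIs there, 246 lay in 94 cells rich in DPPA5, described further on, and the other 1099 cells stood at 50.8 CPM. CYP17A1, the next enzyme towards androgens, had 4 UMIs in all CHGA/CYP11A1 cells. In the cholesterol supply list NPC2 and DHCR7, the last reductase of cholesterol synthesis, were past 2-fold higher, and APOE was lower, among 14 genes.

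Other genes of neuroendocrine cells stood at 43.7 CPM or less beside CHGA, with VAMP2, a vesicle fusion protein, the highest. Of 38 genes on that list 25 had a feature, and 9 of these had 0 UMIs in the CHGA/CYP11A1 cells, among them NEUROD1, NKX2-2, PCSK2 and SST. CHGA was the only gene of the list at a testable level against the other SMPDL3A/PAG6 cells. The whole list summed to 620 CPM in the CHGA/CYP11A1 cells, of which CHGA was 530.

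Transporters and other metabolic genes gave a mixed picture. Of 22 transport genes, 7 were past 2-fold higher in CHGA/CYP11A1 cells than in other SMPDL3A/PAG6 cells and 2 lower. Over all genes the shares were 5.47% higher and 3.51% lower. FABP5, a fatty acid binding protein, stood at 1522 CPM in CHGA/CYP11A1 cells and 532 in other SMPDL3A/PAG6 cells, a ratio of 2.86 (2.74 to 2.98). SLC7A4 had a ratio of 3.45 (3.29 to 3.62) and SLC7A3, a cationic amino acid transporter, 2.58 (2.13 to 3.15). AQP3, a channel for water and glycerol, was the opposite, at 198 in CHGA/CYP11A1 cells and 491 in other SMPDL3A/PAG6 cells, but had a ratio of 0.95 (0.83 to 1.09) with stromal barcodes left out. Among the 10 largest ratios of all genes were ADA, an adenosine deaminase, at 3.76 (3.14 to 4.53), PLAU, the urokinase plasminogen activator, at 3.73 (3.21 to 4.35), NPL, which cleaves sialic acid, at 3.42 (3.16 to 3.70), and ASS1, argininosuccinate synthase, at 3.399 (3.04 to 3.81). NDRG1, a gene raised by hypoxia, was the only 1 of 13 genes of glycolysis and hypoxia past 2-fold, with a ratio of 2.50. None of 31 genes of oxidative phosphorylation and none of 27 genes of the secretory pathway was past 2-fold in either direction, against 8.97% over all genes.

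A few transcription factors of trophoblast were higher in the CHGA/CYP11A1 cells, while most of the list was not past 2-fold. GATA3 stood at 256 CPM in CHGA/CYP11A1 cells, 99.1 in other SMPDL3A/PAG6 cells and 23.5 in the remaining EIS barcodes. TFAP2A stood at 90.0, 30.9 and 3.7, and TFAP2C at 52.7, 22.0 and 1.4. These were the 3 of 13 genes of the list past 2-fold over the other SMPDL3A/PAG6 cells, with 0 lower and a list median of -0.13 (log2). Over all genes 5.47% were past 2-fold higher and 3.51% lower. HAND1, a factor of trophoblast and mesoderm, stood at 155, 83.1 and 24.2. It had 0 UMIs in EL. WNT5A, a secreted signal, was the 1 of 9 conceptus and endometrial signals past 2-fold, a share near the 8.97% over all genes. Its ratio was 3.03 (2.42 to 3.82). The uroplakin UPK2 stood at 91.6 in CHGA/CYP11A1 cells and 85.0 in other SMPDL3A/PAG6 cells, a ratio of 1.08 (0.95 to 1.22). With barcodes thinned to 2000 UMIs and both sets redrawn by the thinned counts, its direction turned. UPK2 then stood at 69.6 in 596 cells that met the rule and 118 in 1157 others, a ratio of 0.59 (0.46 to 0.76). Some CHGA/CYP11A1 cells were among those others, so the turn is not one of depth alone in the same cells.

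**Figure D4:**
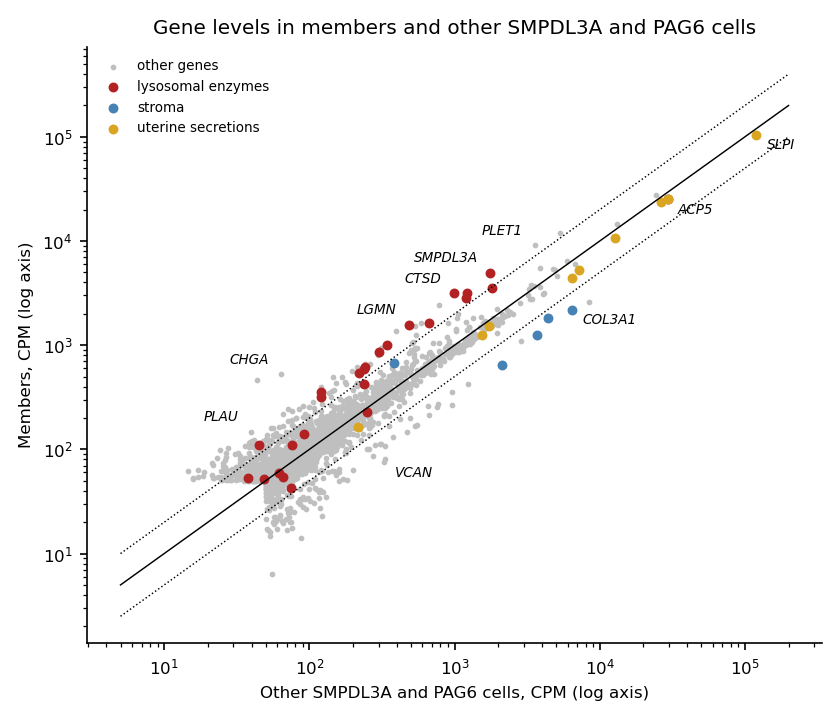
Gene levels in the CHGA/CYP11A1 cells (vertical, "Members") against the other SMPDL3A/PAG6 cells (horizontal), both in CPM on log axes, for the 2909 genes at a testable level. The solid line marks equal levels and the dotted lines 2-fold; lysosomal enzymes lie mostly above it, stromal genes mostly below it, and SLPI and ACP5 near it.

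Many of the genes lower in the CHGA/CYP11A1 cells were matrix and mesenchymal genes. VCAN, a matrix proteoglycan, stood at 75.3 CPM in CHGA/CYP11A1 cells and 328 in other SMPDL3A/PAG6 cells, 4.35-fold lower. HAPLN1, which links hyaluronan and proteoglycan, was 5.30-fold lower, and PTX3, a matrix-binding pentraxin, 4.37-fold lower. APOE, the lipid carrier, stood at 2622 and 8443, 3.22-fold lower. Of 5 stromal markers COL1A1, COL1A2, COL3A1 and DCN were past 2-fold lower, and MGP stood at 675 in CHGA/CYP11A1 cells and 384 in other SMPDL3A/PAG6 cells. Of the MGP UMIs in CHGA/CYP11A1 cells, 4210 lay in the 94 cells rich in DPPA5 and 553 in the other 1099. The stromal markers summed to 6634 CPM in CHGA/CYP11A1 cells and 17069 in other SMPDL3A/PAG6 cells. In single cells they took between 0 and 11.7% of UMIs (median 0.43%) in CHGA/CYP11A1 cells and between 0 and 13.9% (median 0.59%) in other SMPDL3A/PAG6 cells. Macrophage markers summed to 353 CPM in CHGA/CYP11A1 cells and 566 in other SMPDL3A/PAG6 cells, and T or NK markers to 104 and 161. The part of these cell types in the result was not tested. Of 6 imprinted genes, PEG10, MEST and CDKN1C were past 2-fold lower, against 3.51% lower over all genes, and 0 were higher. None of the 3 was past 2-fold with a floor of 10 UMIs of SMPDL3A and PAG6, after thinning or with stromal barcodes left out, and PEG10 had a ratio of 0.95 after thinning. With barcodes at 1% stromal markers or more left out of both sets, an alternative chosen after seeing the data, 178 genes were past 2-fold higher and 30 lower. APOE then had a ratio of 0.91 and MEST of 0.56, while CTSD had 3.12 and LGMN 3.26.

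The contrast was smaller with a higher floor on SMPDL3A and PAG6, which narrowed the gap in these genes without closing it. Where both sets were restricted to at least 10 UMIs of those genes, 999 CHGA/CYP11A1 cells and 436 others remained, with median depths of 4973 and 3357 UMIs. SMPDL3A still had a ratio of 1.68 and PAG6 of 1.72. Then 42 of 2821 genes (1.49%) were past 2-fold, 35 higher and 7 lower. LGMN kept a ratio of 2.11 (2.00 to 2.23), SLC7A4 2.22 (2.09 to 2.36), FABP5 2.23 (2.102 to 2.37), PLAU 2.54 (2.09 to 3.13) and ADA 2.48 (1.96 to 3.18). CTSL was at 1.59 (1.54 to 1.65), PLET1 at 1.39 (1.36 to 1.41), GATA3 at 1.55 (1.37 to 1.76) and STAR at 1.76 (1.495 to 2.09). TFAP2A was at 1.77 and TFAP2C at 1.36, so 0 of 13 transcription factors were past 2-fold. Genes counted as lower also came closer, with VCAN at 0.69, HAPLN1 at 0.70, PTX3 at 0.84, APOE at 0.80, AQP3 at 0.79 and CDKN1C at 0.60, none of them past 2-fold. HSD3B was level, at 84.6 CPM in CHGA/CYP11A1 cells and 85.2 in the others, a ratio of 0.99 (0.83 to 1.20). Only 2 lysosomal genes besides LGMN, CTSD and NPC2, stayed past 2-fold, with a list median of 0.64 (log2) without SMPDL3A. With every barcode thinned to 2000 UMIs and the rule applied to the thinned counts, 596 cells met it, against 1157 comparison cells. CHGA/CYP11A1 cells left with 0 or 1 UMI of CHGA and CYP11A1 could fall among the comparison cells, so the contrast is not between the same cells. In it 106 of 2928 genes (3.62%) were past 2-fold, 93 higher and 13 lower. Of 23 lysosomal genes outside the rule only 5 were past 2-fold higher, with a list median of 0.83 (log2), and 0 were lower. LGMN kept a ratio of 2.44 (2.30 to 2.60) and CTSD 2.24 (2.15 to 2.34). CTSL was at 1.84 (1.77 to 1.92), CTSA at 1.95 (1.81 to 2.11) and PLET1 at 1.55 (1.51 to 1.59).

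Uterine secretions were abundant in the CHGA/CYP11A1 cells and in the sets beside them. SLPI, a protease inhibitor of gland secretions, took 10.4% of UMIs in CHGA/CYP11A1 cells, 11.96% in other SMPDL3A/PAG6 cells, 17.7% in the remaining EIS barcodes and 4.03% in T or NK barcodes. It was detected in each of the 452 T or NK barcodes. The ratio of SLPI to ACP5 UMIs, was 4.15 in CHGA/CYP11A1 cells, 4.07 in other SMPDL3A/PAG6 cells, 3.73 in the remaining EIS barcodes and 3.90 in T or NK barcodes. Of 9 genes of the secretion list, 0 were past 2-fold in either direction against the other SMPDL3A/PAG6 cells, where the share over all genes was 8.97%. How much of the SLPI counts came from free RNA was not tested.

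Against the UPK2, GATA3 and THBS1 set, 279 of 3204 genes (8.71%) were past 2-fold higher in the CHGA/CYP11A1 cells and 328 (10.2%) lower, 18.9% together. The balance turned with trimmed mean scaling, at 339 higher and 287 lower. It also turned after thinning, with both sets redrawn by the thinned counts, at 318 higher and 269 lower. That set was mixed: its vascular endothelial markers summed to 866 CPM, against 203 in the CHGA/CYP11A1 cells, and their part in the result was not tested. It was chosen mostly by THBS1, a matrix glycoprotein, which stood at 563 in CHGA/CYP11A1 cells and 2066 in the set, whereas GATA3 stood at 256 and 58.5. Lysosomal genes outside the rule were past 2-fold higher in 15 of 24 cases and lower in 0. CTBS, which cleaves chitobiose, stood at 206 in CHGA/CYP11A1 cells and 6.5 in the set, and THRSP, a gene of lipid synthesis, at 159 and 4.68. The keratin KRT8 was lower, at 1431 and 2426, as was SPP1, the adhesion protein osteopontin, at 5306 and 11371. Of 10 genes of interferon response and antigen presentation 5 were past 2-fold lower in the CHGA/CYP11A1 cells and 1 higher. Of the CHGA/CYP11A1 cells, 707 also held at least 3 UMIs of UPK2, GATA3 and THBS1.

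Variation within the CHGA/CYP11A1 cells went in part with depth. The first principal component held 3.43% of the variance, with SLPI, UABP-2 and ACP5 at one end and PLET1, CSTB and NPL at the other, and correlated with log UMIs at -0.64. The second held 2.37%, with COL1A2, COL1A1 and APOE at one end and CTSD, SLC7A4 and LGMN at the other. CHGA varied most closely with SMPDL3A (Pearson r of 0.39), LGMN (0.37) and SLC7A4 (0.35), and CYP11A1 with FABP5 and SMPDL3A (0.33 each), over 1193 cells of 1 library that share its depth range. CHGA and CYP11A1 had an r of -0.06. The rule itself bears on the values for CHGA, CYP11A1 and SMPDL3A, so they are a description of the chosen cells.

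As sums over cells, the set with CHGA alone and the set with CYP11A1 alone differed in part of their profile. Of 2970 genes, 341 (11.5%) were past 2-fold between the 190 cells with CHGA alone and the 145 with CYP11A1 alone, 126 (4.24%) higher with CHGA alone and 215 (7.24%) higher with CYP11A1 alone. PLET1 stood at 4841 CPM in cells with CHGA alone and 18832 in cells with CYP11A1 alone. LGMN stood at 1002 and 610, STAR at 78.9 and 175, and SLPI at 134352 and 78065. DPPA5 and MGP were among the genes furthest apart, at 629 and 179 with CHGA alone and 8741 and 4109 with CYP11A1 alone.

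This led to a small set chosen after its values were seen, 94 cells (7.88%) with DPPA5, a pluripotency-associated gene, at 0.2% of UMIs or more. They were 32 of the 145 cells with CYP11A1 alone, 11 of the 190 with CHGA alone and 51 of the 858 with both, and had a median of 6081 UMIs, against 4442 in the other 1099. The 32 with CYP11A1 alone had a median of 9766 UMIs, against 3830 in the other 113. The sums for CYP11A1 alone were thus weighted towards these deeper cells and may not describe the other 113. The contrast without these cells is not given here. DPPA5 is what chose the 94 cells, at 10860 CPM against 315. Beside it, MGP, an inhibitor of calcification, stood at 4797 in the DPPA5-high cells and 89.5 in the other CHGA/CYP11A1 cells, HAVCR1, a receptor known from kidney epithelium, at 1796 and 116, and FOLR1, the folate receptor, at 3318 and 310. CA4, a membrane carbonic anhydrase, stood at 1129 and 49.5, GRN, the lysosomal and secreted protein progranulin, at 7088 and 1078, and PLAC1, a placental gene, at 70.6 and 2.59.

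Of the steroid genes looked at after their values were seen, HSD3B and HSD11B2 were past 2-fold higher in the DPPA5-high cells, and STAR and CYP11A1 were not. Between the DPPA5-high cells and the other CHGA/CYP11A1 cells, 366 of all 3060 genes were past 2-fold, 227 higher and 139 lower. Genes picked by their values cannot show whether steroid genes differed as a group. HSD3B stood at 280 CPM in the DPPA5-high cells and 50.8 in the other CHGA/CYP11A1 cells, a ratio of 5.51 (4.65 to 6.54), and HSD11B2, which inactivates cortisol, at 162 and 4.37. In EL, HSD11B2 stood at 84.7 and HSD3B at 0.88. STAR was nearly level, at 187 and 159, and CYP11A1 stood at 345 and 480. The genes that mark the whole set were lower: SMPDL3A at 1569 and 5456, LGMN at 520 and 1718, SLC7A4 at 577 and 1464, and CHGA at 199 and 576. GATA3 was level, with a ratio of 0.97 (0.84 to 1.12), and PLET1 was higher, at 23260 and 7074. DPPA5 at this share also marked 122 of the 1421 other SMPDL3A/PAG6 cells (8.59%) and 214 of the 6055 remaining EIS barcodes (3.53%), so it is not confined to the CHGA/CYP11A1 cells. DPPA5 had 0.02 CPM in EL.

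**Figure D5:**
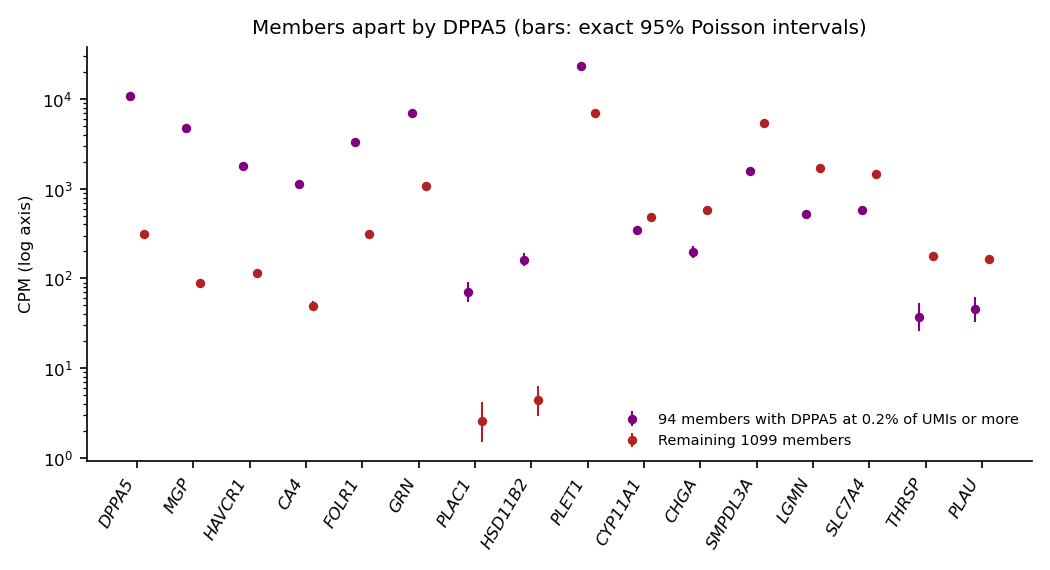
CPM, on a log axis, in the 94 CHGA/CYP11A1 cells with DPPA5 at 0.2% of UMIs or more and in the other 1099, with exact 95% Poisson intervals. DPPA5 chose the cells. MGP, HAVCR1, CA4 and FOLR1 stood higher in them, and CHGA, SMPDL3A, LGMN and PLAU lower.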

How the data were processed

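The authors deposited raw UMI counts per feature and barcode for 1 EL and 1 EIS library. The submitters' processing notes name Cell Ranger 2.1.1 and, per the file headers, the matrix was written by cellranger 6.1.0. The genome build is not given in the sources used here. Features without a symbol (16128 of 26881, 25.4% of UMIs in the CHGA/CYP11A1 cells) stayed in totals and counts but were not named. The 50 symbols carried by several features were summed.

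UMIs were summed over the barcodes of a set and scaled to CPM within that set. Levels have exact Poisson, shares exact Clopper-Pearson and ratios exact conditional intervals, all at 95% and for counting error only. A gene at 0 in 1 set was put at 3 counts. With 1 library per group no p-value exists. T or NK barcodes held at least 5 UMIs of their markers and did not meet the rule. Correlations and components used log-normalised values of genes detected in at least 10% of the cells. Doublets were scored with Scrublet in scanpy 1.11.5, taking the top 0.8% per 1000 barcodes, and kept. Python 3.11.15, numpy 2.4.6, scipy 1.17.1 and pandas 2.3.3 were used. The contrast was also run on simulated data, where some seeded genes of the first draw fell under the 50 CPM level and were missed. Such a run says nothing about differences between sows.

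Genes were named by rank of ratio (the first and last 10 where the higher set reached 100 CPM and 30 UMIs), as the 20 highest, as leaders of a list or marker set, or as the 5 most correlated with CHGA or CYP11A1. CTSS, LIPA, MGP, THBS1 and the genes set beside DPPA5 were named after their values were seen. The members and the lists were chosen with earlier results of these data known. A few genes of the lists are not reported here.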

Additional observations from a re-analysis of the deposited data

How the results depend on the processing

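The rule met 599 cells with CHGA and CYP11A1 at 4 or more and 596 with barcodes thinned to 2000 UMIs, against 1193. Against the other SMPDL3A/PAG6 cells 261 genes were past 2-fold, and this was 42 with SMPDL3A and PAG6 at 10 or more and 106 after thinning. Thinning also moved some CHGA/CYP11A1 cells into the comparison set. The cause of the lower counts was not tested. At 4-fold the count was 12 against the other SMPDL3A/PAG6 cells, 213 against the UPK2, GATA3 and THBS1 set and 184 against the remaining EIS barcodes. Without the low-count filter it was 2884, 4029 and 4895, where genes of few UMIs enter. The other alternatives, planned or added after seeing the data, left each count within 1.5 times. The 52 named genes past 2-fold outside the rule kept their direction in the 12 alternatives that alter a ratio. Of them 13 stayed past 2-fold with SMPDL3A and PAG6 at 10 or more, 18 after thinning and 39 with stromal barcodes left out, against at least 50 under the rest. Trimmed mean scaling shifted the median gene by 0.12 (log2) against the UPK2, GATA3 and THBS1 set. No paired analysis was possible because each group is 1 library. Shallow barcodes can miss 2 UMIs of CHGA and CYP11A1, so depth limits who is a member.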

Other observations

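Several gene groups had few or no genes past 2-fold between the CHGA/CYP11A1 cells and the other SMPDL3A/PAG6 cells. Over all genes the share was 8.97%, so counts from lists this small tell little about the groups. None of 9 keratin and junction genes and none of 14 immediate early genes was past 2-fold in either direction. Of 6 cell cycle genes at a testable level CDKN1C, an inhibitor of cyclin-dependent kinases, was past 2-fold lower, at 50.03 CPM in CHGA/CYP11A1 cells and 161 in other SMPDL3A/PAG6 cells. PCNA, the replication clamp, stood at 49.6 and 59.5. Of 12 proteases and inhibitors PLAU and PCSK6, a proprotein convertase, were past 2-fold higher, with PCSK6 at 92.98 CPM in CHGA/CYP11A1 cells and 38.4 in other SMPDL3A/PAG6 cells.

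Among interferon response and antigen presentation genes, IFNGR1, a subunit of the interferon gamma receptor, was the only 1 of 5 past 2-fold, at 27.1 CPM in CHGA/CYP11A1 cells and 73.2 in other SMPDL3A/PAG6 cells. Its ratio was 0.73 with a floor of 10 UMIs of SMPDL3A and PAG6, no longer past 2-fold. Against the remaining EIS barcodes 4 of 9 genes of this list were past 2-fold lower in the CHGA/CYP11A1 cells and 0 higher, against 5.02% lower and 15.3% higher over all genes.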
